A study of Homo sapiens with 6 samples.

Results

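Aminoacyl-tRNA synthetases are the enzymes that join each amino acid to its transfer RNA, and the ribosome depends on them for every codon it reads. Human cells hold a set for the cytosol and a set for the mitochondrion, where the suffix 2 in the gene symbol marks most of the mitochondrial enzymes. Part of the cytosolic set is held in 1 large particle, the multisynthetase complex, by the scaffold proteins AIMP1, AIMP2 and EEF1E1. Several cytosolic synthetase genes are known targets of ATF4, the transcription factor that responds to amino acid shortage. ENO1 encodes alpha-enolase, a glycolytic enzyme, and the comparison asked how the synthetase transcripts stood in cells with less of it.

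Members were taken by gene symbol from the deposited expression table, as all symbols of 1 letter followed by ARS or ARS2, together with EPRS, EARS2, FARSA, FARSB, TARSL2, AIMP1, AIMP2 and EEF1E1. This gave 41 of the 58273 genes in the table: 21 cytosolic enzymes, 17 mitochondrial enzymes and 3 scaffolds. The rule reads gene symbols only. The split follows the symbols, and GARS and KARS, counted here as cytosolic, are known to supply the mitochondrion as well from the same gene. All 41 were protein-coding genes of GENCODE release 29 on build GRCh38.

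The measurement was RNA-seq of 6 libraries from Daudi cells, as the labels name them, a line established from a Burkitt lymphoma. In 3 libraries the cells carried a short hairpin that targets ENO1 (shENO1), 3 were from wild type cells, and each library has a replicate number from 1 to 3. No library was labelled as carrying a control hairpin, so the hairpin vector and the loss of ENO1 cannot be told apart. The labels do not say that replicates were separate cultures, nor whether the shENO1 cells were a pool or a clone, so each p-value reflects a spread among samples that may be technical. Values are FPKM, fragments scaled by transcript length and by the size of the library, and the absolute depth behind them is unknown.

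ENO1 itself (chr1:8861000-8879250) was at 212, 242 and 368 FPKM in shENO1 replicates 1 to 3, against 927, 998 and 1747 FPKM in wild type replicates 1 to 3. The shENO1 mean was 22.4% of the wild type mean and the groups did not overlap. The log2 fold change was -2.14 with a standard error of 0.29, and the adjusted p in limma was 0.518, or 0.00374 with the replicate number as a block. The markers went against the labelled cell type. Of 12 B-cell markers, CD79B and BLK were listed at 0 in all libraries, MS4A1 and IGHM stayed under 1 FPKM, and the list summed to between 45.1 and 63.7 FPKM in shENO1 and between 39.0 and 66.3 FPKM in wild type libraries. Of 15 myeloid markers, 10 were over 10 FPKM in every library, among them CTSG, AZU1, CEBPA and LYZ, although MPO and CD14 stayed under 1 FPKM, and this list summed to between 953 and 1507 FPKM in shENO1 and between 893 and 1461 FPKM in wild type libraries. Of 10 T and NK cell markers, 4 were listed at 0 throughout while NKG7 and NCAM1 were over 10 FPKM. Both libraries numbered 3 stood apart from the other 4, so some results are also given without them.

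No synthetase of either compartment was called between shENO1 and wild type cells, in a test that called no gene at all. The test was limma on log2(FPKM + 0.5) over the 17870 genes with at least 0.5 FPKM in at least 3 libraries, and a gene was called at an adjusted p under 0.05 with a log2 fold change beyond 1 in either direction. All 41 members passed that filter, 0 were called, against 0.0% of all genes tested, and every adjusted p was 0.9999. ENO1 itself was not called in this fit, with an adjusted p of 0.518 in limma. The lack of calls therefore does not show that the members were unchanged. At an unadjusted p under 0.05 the count was 0 members, against 1.98% of all genes. In no member did the 3 shENO1 values lie all above or all below the 3 wild type values, which held for 5.99% of all genes. In bulk RNA, fewer cells that express a gene and less RNA per cell cannot be told apart, which applies to every level given here.

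The intervals show how large a difference these libraries leave possible. In 38 of the 41 members the 95% interval of the log2 fold change stayed within a 2-fold change either way. This held for 74.3% of all genes and 87.6% of the protein-coding genes. The exceptions among the members were AIMP2 with -1.05 to 1.01, EARS2 with -1.26 to 0.98 and FARSB with -1.05 to 0.70. Half-widths of the interval ran from 0.28 to 1.12 on the log2 scale. With the replicate number as a block all 41 intervals stayed within a 2-fold change, with half-widths of 0.13 to 0.50. So did those of 83.4% of all genes and of 11283 of the 11904 protein-coding genes tested. Every estimate was under 0.5 in absolute log2 fold change, from -0.32 for TARSL2 to 0.27 for RARS2. The same held for 92.6% of all genes and for 11628 of the 11904 protein-coding genes. Below 0 lay 28 members, against 50.8% of all genes. This count fell to 15 without wild type replicate 3, to 16 without shENO1 replicate 2 and to 18 without shENO1 replicate 1. It rose to 38 without shENO1 replicate 3, to 35 without wild type replicate 2 and to 34 without wild type replicate 1. The median over the members was -0.04, against -0.0036 over all genes.

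**Figure D1:**
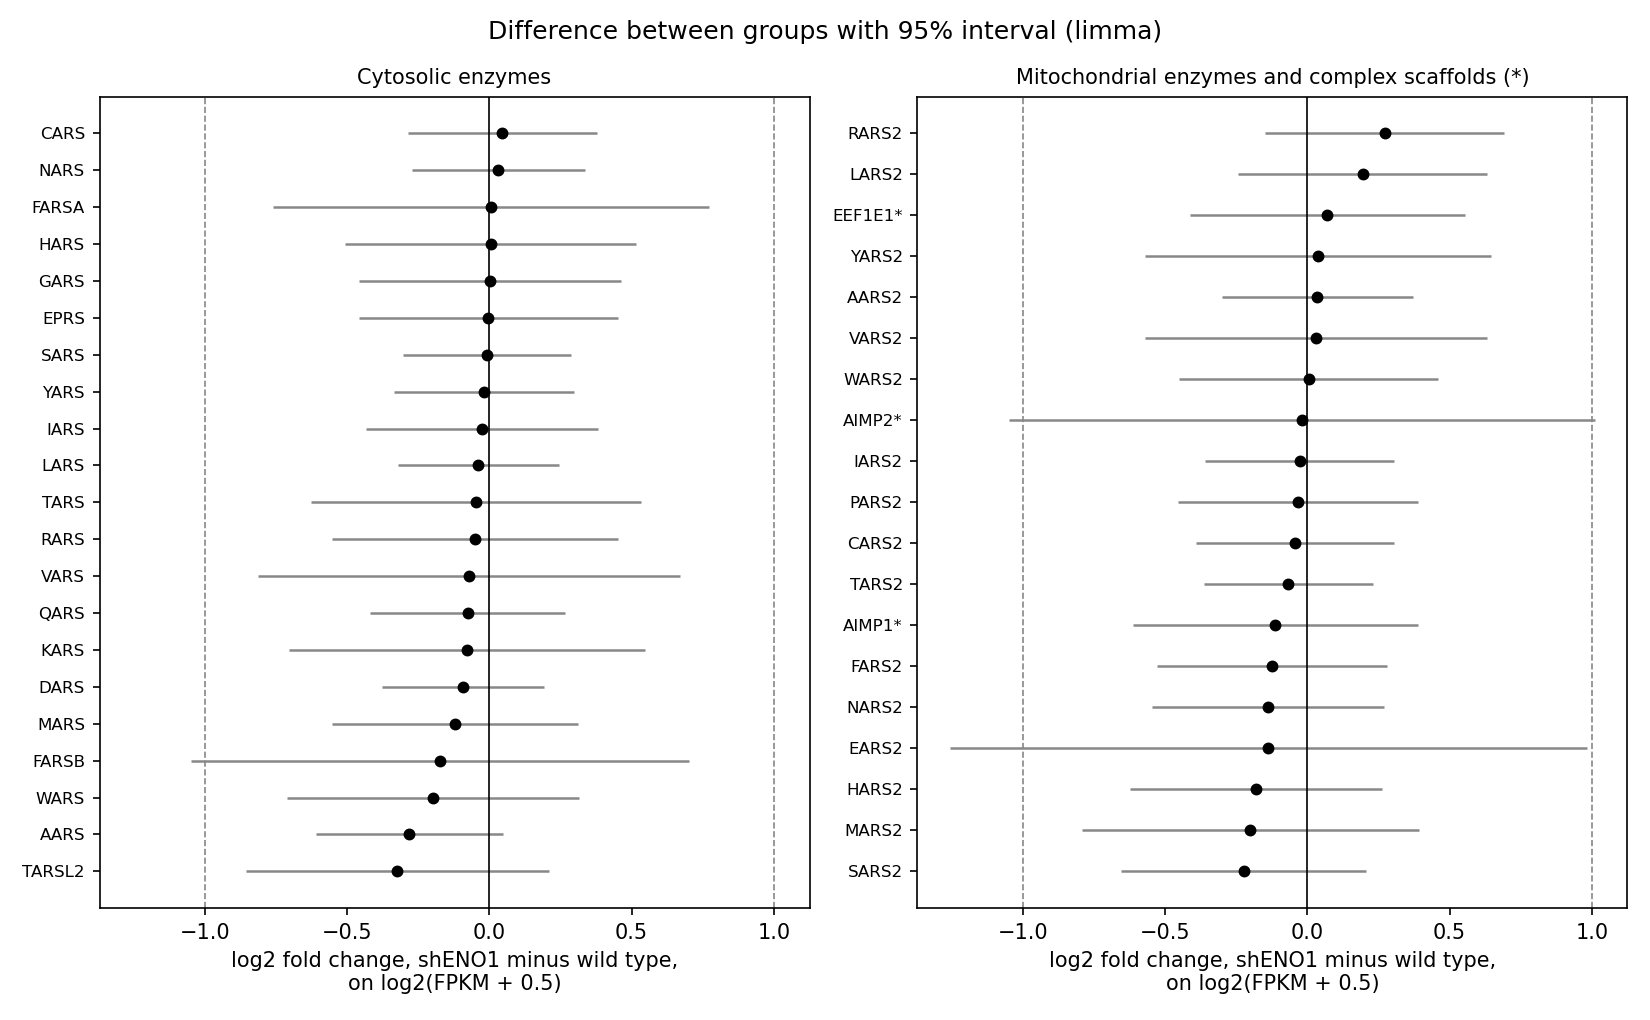
Points are log2 fold changes, shENO1 minus wild type, on log2(FPKM + 0.5), lines are 95% intervals from limma, and dashed lines mark a 2-fold change. Every interval spans 0, and 3 reach past the dashed lines, those of AIMP2, EARS2 and FARSB. One mitochondrial enzyme is not drawn.

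By level, the cytosolic enzymes stood above the mitochondrial ones in both groups. YARS, the tyrosine enzyme, was at 225, 189 and 225 FPKM in shENO1 replicates 1 to 3, against 214, 192 and 241 FPKM in wild type replicates 1 to 3. QARS, which charges glutamine, followed at 200.2, 223 and 183 FPKM in shENO1, against 219, 242 and 181 FPKM in wild type libraries. WARS, which charges tryptophan, had 138, 122 and 196 FPKM in shENO1, against 151, 154 and 214 FPKM in wild type libraries. These were the 3 highest members, and in each of them the groups overlapped. Of the 20 highest members, 17 were cytosolic enzymes, 2 were mitochondrial enzymes, CARS2 and IARS2, and the remaining one was AIMP2.

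At the other end stood PARS2, TARSL2 and RARS2. PARS2, the mitochondrial proline enzyme, had 4.25, 4.37 and 4.10 FPKM in shENO1 replicates 1 to 3, against 4.25, 4.96 and 3.89 FPKM in wild type replicates 1 to 3. TARSL2, a threonine enzyme closely related to TARS, so that reads could be divided between the pair, had 6.74, 5.63 and 3.83 FPKM in shENO1, against 6.84, 6.28 and 7.08 FPKM in wild type libraries. Ranked by mean level, 38 of the 40 neighbouring pairs had overlapping ranges over the 6 libraries. The ranges separated between NARS and IARS2 and between RARS2 and TARSL2, so the order is firm only in broad steps.

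**Figure D2:**
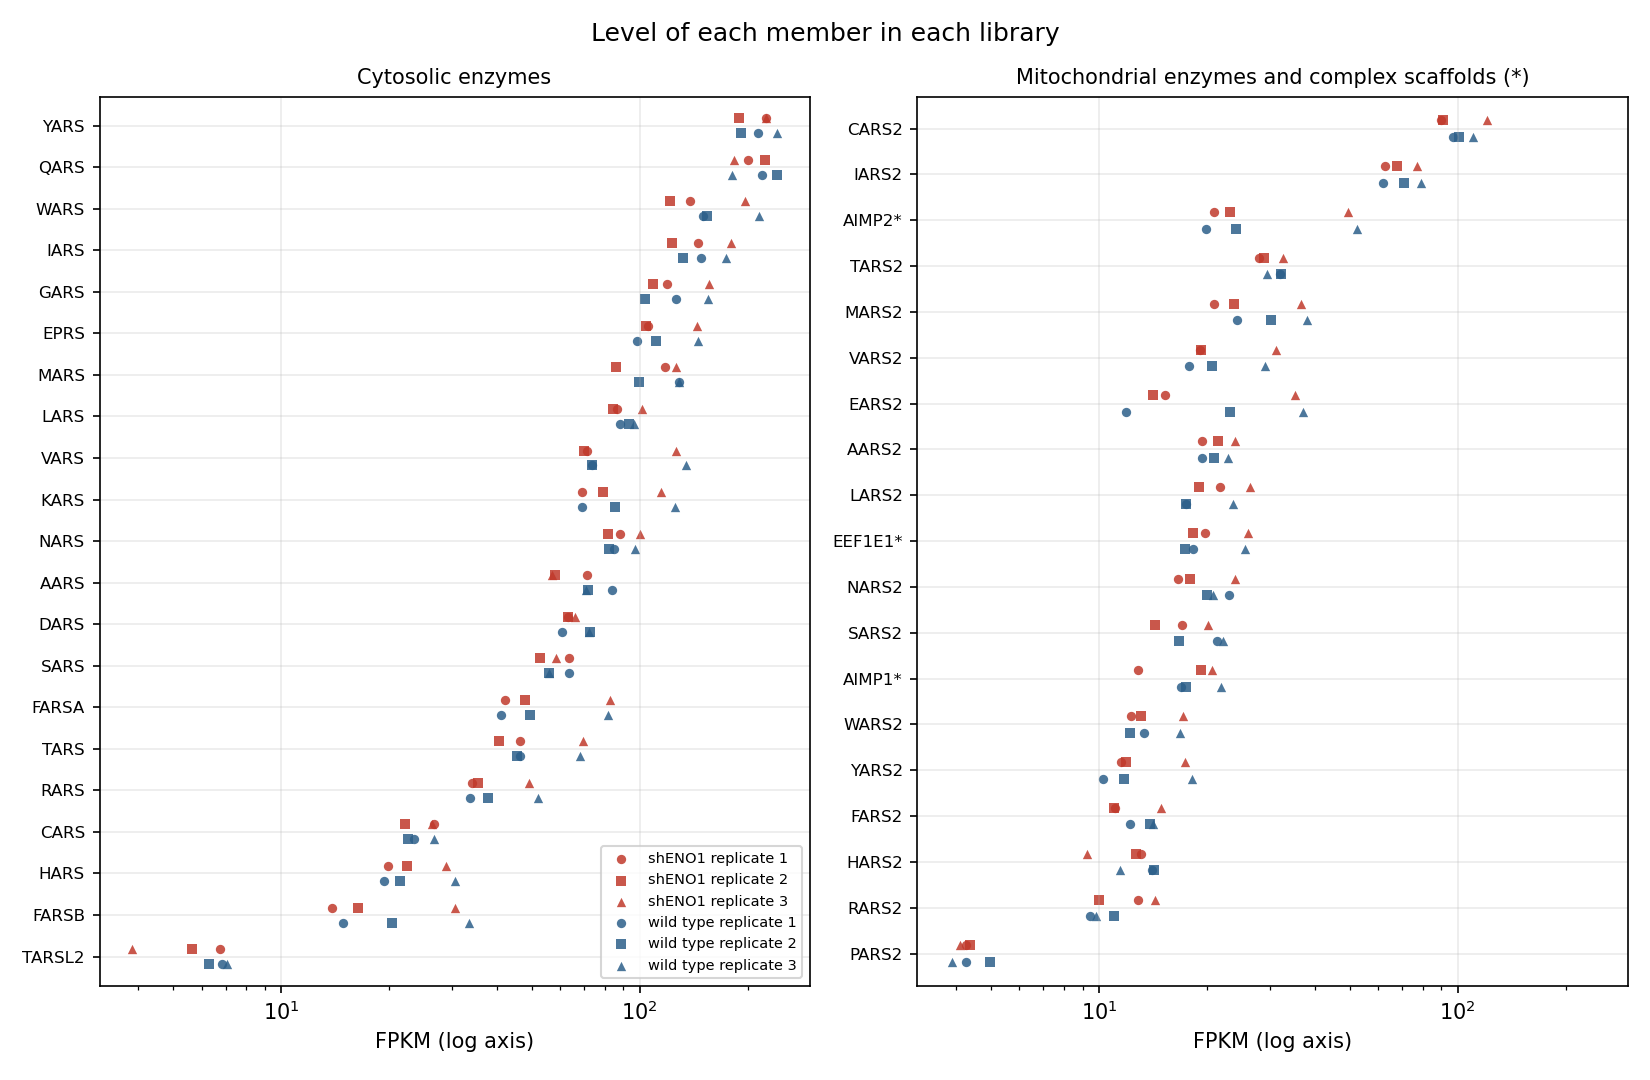
Each point is the FPKM of 1 library on a log axis, with shENO1 above wild type in each row and triangles for the libraries numbered 3. The rows run from YARS with 214 FPKM to PARS2 with 4.30 FPKM on average, the groups overlap in every row, and the triangles lie to the right in most rows. One mitochondrial enzyme is not drawn.

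Within amino acids the cytosolic enzyme was mostly the higher one. Of 17 amino acids with a separate mitochondrial enzyme, the cytosolic transcript was the higher one in all 6 libraries for 16, with FARSA standing for the phenylalanine enzyme and EPRS set against both EARS2 and PARS2. EPRS, which charges both glutamate and proline in the cytosol, had a ratio to PARS2 of 27.9 ± 6.30 in shENO1 and 27.6 ± 8.38 in wild type libraries (SD, n = 3 each). The YARS to YARS2 ratio was 16.1 ± 3.28 in shENO1 and 16.8 ± 3.81 in wild type libraries. WARS to WARS2 gave 10.7 ± 1.203 in shENO1 and 12.2 ± 0.829 in wild type libraries. At the low end, TARS to TARS2 gave 1.73 ± 0.372 in shENO1 and 1.73 ± 0.522 in wild type libraries. These ratios span a wide range over amino acids, while the groups overlapped in each.

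Cysteine was the exception. CARS2, the mitochondrial enzyme, had 90.0, 90.9 and 121 FPKM in shENO1 replicates 1 to 3, against 97.0, 101 and 111 FPKM in wild type replicates 1 to 3. CARS, its cytosolic counterpart, had 26.6, 22.1 and 26.3 FPKM in shENO1, against 23.5, 22.6 and 26.6 FPKM in wild type libraries. CARS2 was therefore the higher transcript in all 6 libraries, with a CARS to CARS2 ratio of 0.253 ± 0.0394 in shENO1 and 0.236 ± 0.00983 in wild type libraries. FPKM divides by transcript length, which allows this comparison between genes, but the length used for each gene follows from the transcript models of the authors' estimate.

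**Figure D3:**
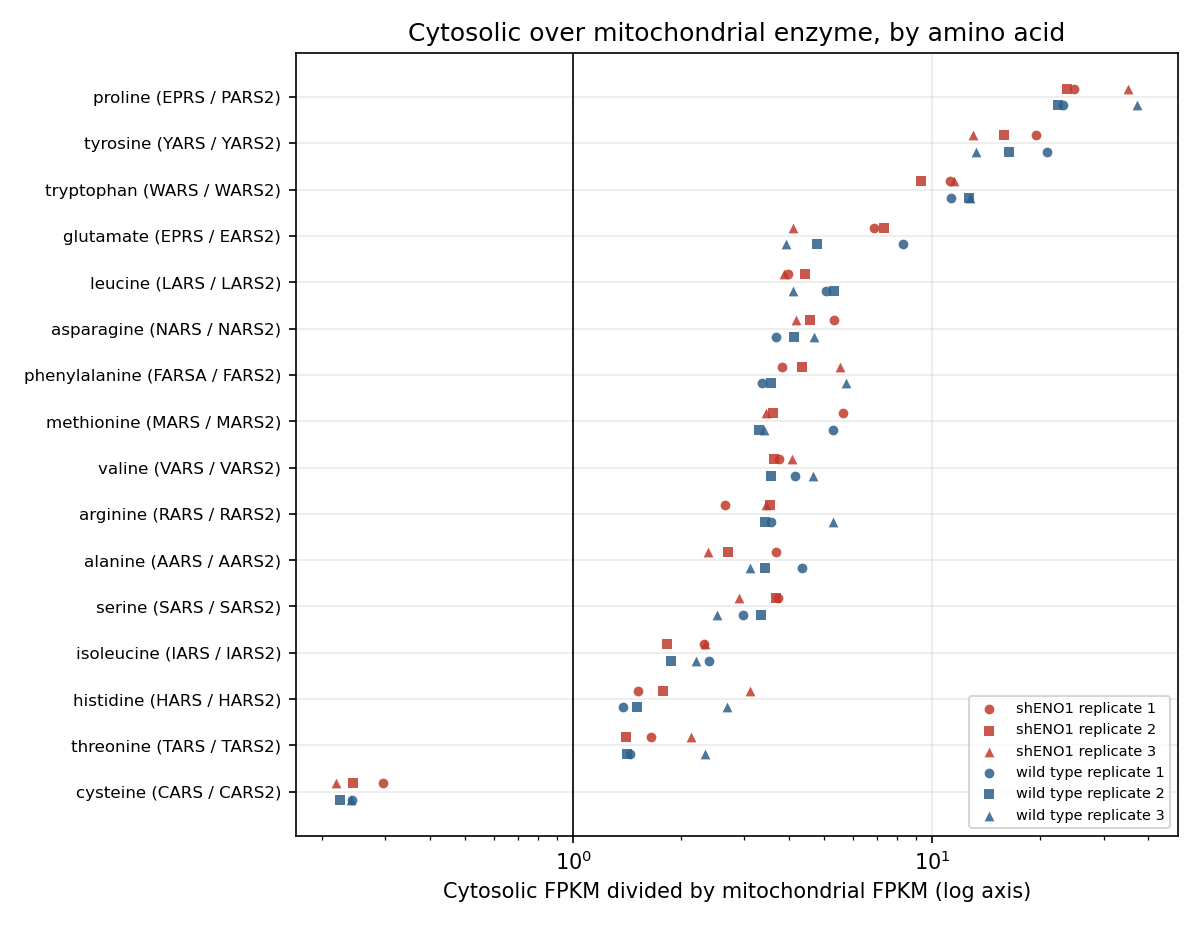
For each amino acid drawn the FPKM of the cytosolic enzyme is divided by that of the mitochondrial enzyme in each library, on a log axis, with shENO1 above wild type in each row. Only cysteine lies left of 1, at 0.218 to 0.296, and shENO1 and wild type points overlap in every row.

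The gap between the compartments was of like size in both groups. The median cytosolic enzyme was at 71.3, 69.7 and 99.9 FPKM in shENO1 replicates 1 to 3, against 73.5, 73.6 and 96.4 FPKM in wild type replicates 1 to 3. The median mitochondrial enzyme was at 17.1, 17.9 and 24.0 FPKM in shENO1, against 17.8, 19.9 and 22.8 FPKM in wild type libraries. Both medians were higher in replicate 3 of each group, and in both the groups overlapped. The log2 difference between the medians, cytosolic minus mitochondrial, was 2.03, 1.93 and 2.04 in shENO1, against 2.02, 1.86 and 2.06 in wild type libraries. Its group means differed by 0.02, less than the within-group SD of 0.085. Leaving out single libraries moved this to between -0.04, when wild type replicate 2 was dropped, and 0.06, when wild type replicate 3 was, and without both libraries numbered 3 it was 0.05.

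Fold changes were near 0 in each set. Below 0 lay 16 of 21 cytosolic and 10 of 17 mitochondrial enzymes, against 50.8% of all genes. The median log2 fold change was -0.05 over the cytosolic and -0.03 over the mitochondrial enzymes. These medians rest on the scaling: with every library set to the same FPKM sum they were -0.0049 for the cytosolic and 0.0055 for the mitochondrial enzymes, with the median of all genes at 0.04. They rest on single libraries too, being 0.10 for the cytosolic and 0.06 for the mitochondrial enzymes without wild type replicate 3 and -0.16 and -0.14 without shENO1 replicate 3. Within amino acids, the fold change of the cytosolic enzyme minus that of the mitochondrial one ran from -0.32 for arginine to 0.22 for serine, with a median of 0.02, and in 0 of 17 amino acids did the ratio separate the groups.

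Arginine was the amino acid with the widest gap, at -0.3226, with alanine close to it at -0.3175. Without both libraries numbered 3, RARS was at -0.0375 and RARS2 at 0.1476, while NARS was at 0.025 and NARS2 at -0.3083. The first place of arginine therefore depends on those libraries. RARS2, the mitochondrial arginine enzyme, had 12.9, 10.01 and 14.3 FPKM in shENO1 replicates 1 to 3, against 9.44, 11.02 and 9.80 FPKM in wild type replicates 1 to 3. The log2 fold change was 0.27 with a standard error of 0.18 and an unadjusted p of 0.171 in limma, and shENO1 replicate 2 lay among the wild type values. RARS, the cytosolic enzyme, had 34.0, 35.4 and 49.2 FPKM in shENO1, against 33.7, 37.7 and 51.9 FPKM in wild type libraries, a log2 fold change of -0.05.

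After group means were removed, libraries of the same number correlated at 0.312, 0.176 and 0.491 for numbers 1 to 3. The value for number 2 is near the 0.144 between shENO1 replicate 2 and wild type replicate 1. This pairing was read from the values, and the labels do not state it. The median standard error of the members was 0.07 with the replicate number as a block, against 0.19 without it. With the replicate number as a block in limma, 1 gene of all was called, 0.0056%, which was ENO1. At an unadjusted p under 0.05 stood 3 members, AARS, WARS and SARS2, against 7.55% of all genes. All 3 were lower in shENO1, against 3.78% of all genes in that direction, and none reached an adjusted p under 0.05. Their share of the 41 members, 7.32%, is near that of all genes.

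AARS, the cytosolic alanine enzyme, came closest to a difference. It had 71.4, 57.96 and 57.0 FPKM in shENO1 replicates 1 to 3, against 83.8, 71.6 and 71.0 FPKM in wild type replicates 1 to 3. Each shENO1 value was below the wild type value of its own number, while shENO1 replicate 1 fell between wild type replicates 2 and 3 and so overlapped them. The log2 fold change was -0.28 with a standard error of 0.14 and a 95% interval of -0.61 to 0.05, with an unadjusted p of 0.0822 in limma. With the block the standard error was 0.06, the unadjusted p 0.00329 and the adjusted p 0.585. Without both libraries numbered 3 the estimate was -0.27, and without shENO1 replicate 1 it was -0.39 with an unadjusted p of 0.0417, the one member past 0.05 when a library was left out.

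WARS, the cytosolic tryptophan enzyme and a known interferon-induced gene, was lower in shENO1 in each pair as well, with log2 differences of -0.13, -0.34 and -0.13 in pairs 1 to 3. Its log2 fold change was -0.20 with a standard error of 0.22, and the adjusted p with the block in limma was 0.635. With 1 library left out the fold change ran from -0.40 without shENO1 replicate 3 to -0.03 without wild type replicate 3. SARS2, the mitochondrial serine enzyme, had 17.1, 14.4 and 20.1 FPKM in shENO1 replicates 1 to 3, against 21.4, 16.8 and 22.2 FPKM in wild type replicates 1 to 3. Its log2 fold change was -0.22 with a standard error of 0.18, and the adjusted p with the block in limma was 0.640. With 1 library left out it ran from -0.35 without wild type replicate 2 to -0.11 without shENO1 replicate 2. The exons of SARS2 overlap those of other genes on both strands, so part of its reads may belong to these.

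GARS, the glycine enzyme of both compartments, showed the spread that the replicate number carries. It had 119, 109 and 156 FPKM in shENO1 replicates 1 to 3, against 126, 103 and 155 FPKM in wild type replicates 1 to 3. Group means were 128 ± 24.97 FPKM in shENO1 and 128 ± 25.7 FPKM in wild type libraries (SD, n = 3 each), with a log2 fold change of 0.0023. Its 95% interval still ran from -0.46 to 0.46, and replicate 3 was the highest library in both groups.

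Lower in shENO1 in all 3 pairs were 9 members, against 15.8% of all genes, and of these 6 were cytosolic and 3 mitochondrial. Higher in all 3 pairs were 4 members, among them AARS2, LARS2 and EEF1E1, against 14.1% of all genes. LARS2, the mitochondrial leucine enzyme, had 21.8, 19.0 and 26.3 FPKM in shENO1 replicates 1 to 3, against 17.4, 17.5 and 23.6 FPKM in wild type replicates 1 to 3. Its log2 fold change was 0.19 with a standard error of 0.19, and it ran from 0.07 without shENO1 replicate 3 to 0.33 without wild type replicate 3. Its groups overlapped, with replicate 3 the highest library in each.

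TARSL2 had the lowest estimate of all members, and it rested on 1 library. Pairs 1 and 2 differed by -0.02 and -0.14 on the log2 scale, while pair 3 differed by -0.81, where shENO1 replicate 3 had 3.83 FPKM. The log2 fold change was -0.32 with a standard error of 0.23, against -0.12 without shENO1 replicate 3 and -0.08 without both libraries numbered 3.

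The scaffolds and the multisynthetase complex gave no call. AIMP1, AIMP2 and EEF1E1 had log2 fold changes of -0.11, -0.02 and 0.07. Over the 11 genes of the complex the median was -0.05, and 0 had an unadjusted p under 0.05 in limma. Below 0 lay 10 of them, or 90.9% against 50.8% of all genes. Over all members such a count moved with the scaling and with single libraries. Its transcripts spanned a wide range, with AIMP1 lowest at 17.5 ± 4.16 FPKM in shENO1 and 18.7 ± 2.70 FPKM in wild type libraries (SD, n = 3 each) and QARS highest at 202 ± 20.3 FPKM in shENO1 and 214 ± 30.9 FPKM in wild type libraries. By catalytic fold, the 19 class I enzymes had a median log2 fold change of -0.03 and the 19 class II enzymes one of -0.07.

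In most members the level followed the replicate number. In 30 of the 41 members the library numbered 3 was above those numbered 1 and 2 in both groups, against 26.4% of all genes and 34.7% of the protein-coding genes. Other lists of the tRNA pathway showed the pattern about as often as the 73.2% of the members, at 69.6% for transcription of tRNA genes, 72.7% for end processing and export and 66.7% for modification. The 30 members were 15 of the 21 cytosolic enzymes, 12 of the 17 mitochondrial enzymes and all 3 scaffolds. Replicate 3 lay above the mean of the other replicates by a median log2 difference of 0.42 in shENO1 and 0.31 in wild type libraries over the members, against -0.02 and -0.04 over all genes. Below both other libraries in both groups were 4 members, AARS, HARS2, PARS2 and QARS, against 29.5% of all genes.

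The shift was largest in AIMP2 and EARS2. AIMP2, a scaffold of the complex, had 20.9, 23.1 and 49.6 FPKM in shENO1 replicates 1 to 3, against 19.9, 24.0 and 52.3 FPKM in wild type replicates 1 to 3. EARS2, the mitochondrial glutamate enzyme, had 15.2, 14.2 and 35.2 FPKM in shENO1, against 11.8, 23.2 and 37.0 FPKM in wild type libraries. FARSA and FARSB, the subunits of the cytosolic phenylalanine enzyme, were both high in replicate 3. FARSA had 42.2, 47.8 and 82.6 FPKM in shENO1, against 40.96, 49.4 and 81.6 FPKM in wild type libraries, and FARSB had 13.9, 16.4 and 30.6 FPKM in shENO1, against 14.8, 20.4 and 33.4 FPKM in wild type libraries. At least 1.5-fold higher in replicate 3 in both groups were 8 members, among them AIMP2, EARS2, FARSA, FARSB, KARS, VARS and VARS2, and all 3 members with wide intervals are among them.

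Other measures moved with the number 3 too. ENO1 was highest in replicate 3 of each group, and the FPKM of protein-coding genes summed to 546243 in shENO1 replicate 3 and 557264 in wild type replicate 3, against 494058 to 506356 in the other 4 libraries. With each library set to the same protein-coding sum, the pattern held in 22 members, against 18.9% of all genes. The part of this sum in the pattern was not tested further, and the labels do not say what the number marks.

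**Figure D4:**
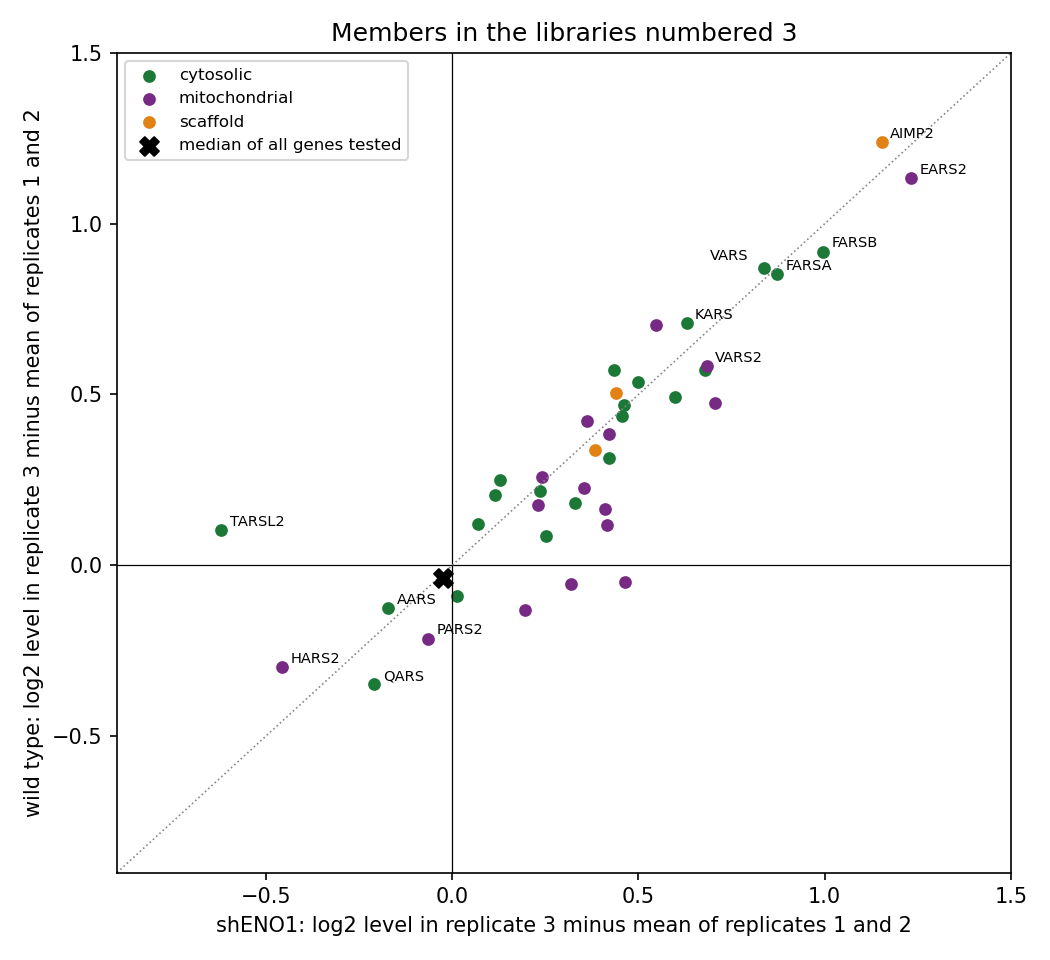
Each point is a member, 1 mitochondrial enzyme left out, with the log2 level in replicate 3 minus the mean of replicates 1 and 2 for shENO1 on the horizontal and for wild type on the vertical axis, and the cross is the median of all genes tested. Points gather at the upper right, with AIMP2 and EARS2 farthest out, while AARS, HARS2, PARS2 and QARS lie at the lower left.

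HARS and HARS2, the cytosolic and mitochondrial histidine enzymes, went opposite ways in the libraries numbered 3 although they are neighbours. HARS had 19.9, 22.4 and 28.8 FPKM in shENO1 replicates 1 to 3, against 19.4, 21.5 and 30.6 FPKM in wild type replicates 1 to 3. HARS2 had 13.1, 12.6 and 9.26 FPKM in shENO1, against 14.1, 14.2 and 11.4 FPKM in wild type libraries. The HARS to HARS2 ratio was 1.52, 1.77 and 3.11 in shENO1, against 1.38, 1.51 and 2.68 in wild type libraries, highest in replicate 3 of each group. Their log2 fold changes between the groups were 0.0040 and -0.18. The start sites face away from each other on chromosome 5 with 84 bases between them, shown here because both genes begin at this stretch. It is given as RefSeq has it on the plus strand of GRCh38.p14, at chr5:140691371-140691454, and HARS is read leftward and HARS2 rightward from it. Capitals mark CCGGAAGT, the core of a site for ETS transcription factors, found once on each strand.
HARS and HARS2 starts: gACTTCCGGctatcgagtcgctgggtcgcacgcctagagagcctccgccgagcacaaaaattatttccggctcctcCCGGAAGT
These letters were found on either strand in 7 of the 33 members with a start-site window in RefSeq, or 21.2%, and in 4.44% of all 27305 windows. HARS and HARS2 are both among the 7, through the same 2 matches in this stretch. Each window runs from 250 bases before to 50 bases after a start. Exons of HARS and HARS2 overlap on opposite strands, and the sources used here do not say whether reads were counted by strand, so reads of this pair may be divided between them.

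Synthetase genes known to respond to ATF4 gave no call in shENO1 cells. Of these 13 genes, 0 had an unadjusted p under 0.05 in limma. With the block 2 did, AARS and WARS, which is 15.4% against 7.55% of all genes. Below 0 lay 10, or 76.9% against 50.8% of all genes, and the median log2 fold change was -0.03. Apart from AARS, the other 12 lay between -0.20 for WARS and 0.04 for CARS. ATF4 acts at a composite element with C/EBP partners, searched for here as TGATGNAAN on both strands. It was found in 7 of the 33 members with a window, or 21.2%, and in 3.67% of all windows. The members were AARS, CARS, IARS, MARS, NARS, TARS and YARS2, and the first 6 hold the stricter form TGATGCAA, found in 0.923% of all windows. The sequences are shown to compare that form, read in the direction of each gene from RefSeq on GRCh38.p14, with the match in capitals. Where the match spans the start site or lies past it, the sequence ends with the match.
AARS, minus strand of chr16:70289666-70289714: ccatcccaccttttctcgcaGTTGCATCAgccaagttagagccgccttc
CARS, minus strand of chr11:3057418-3057446: gcgcgacttccggggcggcgGTTGCATCA
IARS, minus strand of chr9:92293698-92293731: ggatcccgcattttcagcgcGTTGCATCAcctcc
MARS, plus strand of chr12:57488043-57488071: gaagcgggaggccggttccgGTTGCATCA
NARS, minus strand of chr18:57621814-57621842: gccctcagatctacgctctcTGATGCAAC
TARS, plus strand of chr5:33440946-33440974: cggggttagggcgcctttcgATTGCATCA
In AARS and IARS the match lies upstream of the start, beginning 188 and 14 bases before it. In CARS and MARS the match spans the start. In TARS and NARS it lies past the start, farther so in NARS. AARS, CARS, IARS, MARS and, on the other strand, NARS share the same 9 letters. In the shENO1 cells the log2 fold changes of these 5 were -0.28, 0.04, -0.03, -0.12 and 0.03, that of TARS was -0.05, and that of YARS2 was 0.04. A match in letters is a description of the sequence and does not show that a factor binds there.

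Genes outside the family that respond to the same shortage also stayed under the threshold. Of 24 tested genes of the amino acid response, 0 had an unadjusted p under 0.05 in limma, and their median log2 fold change was 0.03. With the block 4 did, 2 higher and 2 lower, which is 16.7% against 7.55% of all genes. The lowest adjusted p among them with the block was 0.5365. SLC7A11, the cystine transporter, had 13.6, 12.0 and 8.70 FPKM in shENO1 replicates 1 to 3, against 22.1, 17.8 and 12.2 FPKM in wild type replicates 1 to 3. It was lower in each pair but the groups overlapped, with a log2 fold change of -0.56, a standard error of 0.26 and an unadjusted p of 0.0656 in limma. Of these genes 2 did not overlap between the groups, 8.33% against 5.99% of all genes. ATF3, a stress-induced transcription factor, was at 3.04 ± 0.518 FPKM in shENO1 and 2.24 ± 0.0686 FPKM in wild type libraries (SD, n = 3 each), and VLDLR was at 28.7 ± 2.07 FPKM in shENO1 and 25.5 ± 1.18 FPKM in wild type libraries. CHAC1, a glutathione-degrading enzyme, had a log2 fold change of -0.25.

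Genes of the steps around charging gave no call either. Over 23 genes for transcription of tRNA genes the median log2 fold change was -0.04, over 22 for tRNA end processing and export -0.02, over 30 for tRNA modification -0.05, over 4 partners of mitochondrial charging -0.0018, and over 11 tested elongation factors -0.04. In none of these lists did a gene have an unadjusted p under 0.05 in limma. With the block, 5 genes of end processing and export did, 1 higher and 4 lower, and so did 3 of modification, 2 of transcription, 1 elongation factor and 0 charging partners, against 7.55% of all genes, and none reached an adjusted p under 0.05. Named next are up to 4 genes of each list with the smallest unadjusted p in limma without the block. Among elongation factors these were EEF1D, EEF1G, EEF2 and GFM2, with log2 fold changes of -0.23, -0.07, -0.07 and -0.08. For transcription they were MAF1, the repressor of RNA polymerase III, with 0.26, POLR3E and POLR3F, subunits of that polymerase, with -0.21 and -0.20, and BDP1 with -0.15. For end processing they were RPP38 with -0.34, RPP21 with 0.20, TRNT1 with -0.24 and TSEN15 with 0.21, and for modification MTO1 with 0.39, ADAT2 with -0.27, TRMT11 with 0.35 and ELP4 with 0.15. GATB, GATC, MTFMT and QRSL1, the partners of mitochondrial charging, had -0.17, 0.08, -0.03 and 0.02.

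Groups did not overlap for 1 of the 11 elongation factors, 1 of the 22 end processing genes and 1 of the 30 modification genes, against 5.99% of all genes, and for none of the genes of tRNA gene transcription or mitochondrial charging. EEF1D, a subunit of the factor that reloads eEF1A, the carrier of charged tRNA, had 288, 264 and 312 FPKM in shENO1 replicates 1 to 3, against 340, 335 and 338 FPKM in wild type replicates 1 to 3. MTO1, which modifies mitochondrial tRNAs, had 18.03, 16.7 and 20.7 FPKM in shENO1, against 14.5, 11.7 and 15.9 FPKM in wild type libraries. RPP21, a subunit of RNase P, had 26.01, 24.6 and 25.9 FPKM in shENO1, against 21.1, 22.9 and 22.6 FPKM in wild type libraries. All 3 had an adjusted p of 0.9999 in limma.

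Without both libraries numbered 3, the medians were -0.06 over the cytosolic and -0.08 over the mitochondrial enzymes, 0 members were called, and 12 of the 41 did not overlap between the groups, against 33.0% of all genes with 2 libraries a group.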

How the data were processed

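Total RNA libraries (TruSeq RNA kit, paired-end reads) were sequenced from 3 shENO1 and 3 wild type samples, grouped by the treatment label. The labels name a column RNA kit and the methods of the study TRIzol. The deposited table holds FPKM values that the authors made with Cuffnorm. STAR, Cufflinks, Cuffnorm, hg38 and GRCh38 are named in the submitters' processing notes. Versions, the scaling used by Cuffnorm and strand counting are not given in the sources used here, and the depth per sample is unknown, so no counting interval is given. Cuffnorm divides shared reads by estimate, and exons of 24 members overlap another gene in GENCODE release 29, 7 of them on the same strand.

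The comparison was made by limma (version 3.58.1, R version 4.3.3), with a trend of the variance on the level and without covariates, on log2(FPKM + 0.5) for genes with at least 0.5 FPKM in at least 3 libraries, two-sided, with Benjamini-Hochberg adjustment over all 17870 genes. A fold change on this scale understates that of low genes. Read counts were not used. An exact test of 3 against 3 values cannot go below p = 0.1. The fit was tested on simulated data. Members and lists were chosen with earlier results of these data known. Named with all values were AARS, GARS, WARS, the 3 highest and lowest members by fold change and by level, the enzymes of the amino acid with the widest gap in fold change, and, with their fold change, up to 4 genes of smallest p in each surrounding list. Values of 1 member named by this rule are not reported here, and it stays in the counts and medians. Other genes with values were chosen after these were seen. After group means were removed, same-numbered libraries correlated across genes at 0.312, 0.176 and 0.491, and other pairs at -0.390 to 0.144, so the number was also used as a block. The labels do not state this pairing. Alternatives were other pseudocounts, filters and scalings, no trend, library weights, the block, and leaving out libraries. Of the 41 members 33 had a RefSeq start-site window, taken as the first listed for each gene.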

Additional observations from a re-analysis of the deposited data

How the results depend on the processing

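Under all 11 alternatives and all 6 fits that left out 1 library, 0 members were called. Of all genes, 1 was called with the replicate block, 4 with library weights and 2 without both libraries numbered 3. Members at an unadjusted p under 0.05 numbered 3 with the block and 0 to 1 with 1 library left out. At the same threshold the block gave 5 genes of tRNA end processing, 4 of the amino acid response, 3 of modification, 2 of tRNA gene transcription and 1 elongation factor, where 0 stood without it. Of all genes, 7.55% passed this threshold with the block and 1.98% without it. At the adjusted threshold the block changed no call other than that of ENO1. Members whose groups did not overlap numbered 12 without both libraries numbered 3 and 1 to 8 with 1 library left out, when 33.0% and 11.4% to 21.5% of all genes did not, as fewer values make this easier. Members below 0 numbered 20 at the same FPKM sum, against 41.5% of all genes in that setting. They numbered 32 at the same protein-coding FPKM sum, a scaling added after seeing the data, against 52.1% of all genes. With 1 library left out they numbered 15 to 38, against 49.6% to 52.3% of all genes. Fold changes near 0 changed sign: YARS was at 0.0236 at the same FPKM sum, 0.0153 with library weights and 0.0215 without both libraries numbered 3, PARS2 at 0.0055 at the same FPKM sum, and GARS at -0.003 at the same protein-coding sum and -0.0039 without both libraries numbered 3. With 1 library left out, fold changes ran from -0.1496 to 0.1479 for GARS, -0.0992 to 0.066 for YARS, -0.1919 to 0.0177 for QARS, -0.1043 to 0.0531 for PARS2 and -0.2167 to 0.1287 for RARS. The cause of these shifts was not tested. ENO1 was called with the block, with library weights and without both libraries numbered 3. The unknown depth and 3 libraries a group limit what could be detected.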
